A study of Mus musculus with 23 samples.

Results

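Bile acid synthesis and its feedback control were followed through 10 genes in the liver of mice treated with pregnenolone 16α-carbonitrile (PCN), the pharmacological ligand of the nuclear receptor PXR in rodents. The genes were *Cyp7a1*, *Cyp8b1*, *Cyp27a1*, *Cyp7b1*, *Hsd3b7*, *Acox2*, *Slc27a5* and *Baat*, which encode enzymes, and *Nr1h4* (FXR) and *Nr0b2* (SHP), which encode regulators. They were found by gene name among the non-control probes of the array, and all 10 passed the filter for signal above background, out of 21056 genes that did. Together they had 15 probes of 56605. Each gene was read from its brightest kept probe.

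Liver RNA came from 23 male mice on a C57BL/6J background, 1 array per mouse. WT mice were bought at 6 weeks of age, while *Pxr*-/- mice, which lack PXR (gene *Nr1i2*), came from a colony kept in the facility for 10 years and have no age in the labels used here. All mice were acclimatized for 2 weeks and then injected intraperitoneally every day for 4 days, with corn oil alone in WT CONT (n = 6) and *Pxr*-/- CONT (n = 6) or with PCN at 100 mg/kg in corn oil in WT PCN (n = 5) and *Pxr*-/- PCN (n = 6). Livers were taken at ZT6, 6 hours after the last injection, in a state that the labels call fed and the study's text calls semi-fasted. Because the genotypes came from different sources, genotype and colony cannot be told apart. The *Nr1i2* probe did not separate the genotypes, with log2 signals of 10.63 to 12.15 in WT CONT, 11.78 to 12.46 in WT PCN, 10.16 to 12.08 in *Pxr*-/- CONT and 11.05 to 12.41 in *Pxr*-/- PCN, and where this probe lies relative to the deletion is not given in the sources used here. The PXR target *Cyp3a11* followed the labels, with a log2 change after PCN of 3.55 in WT mice and 0.31 in *Pxr*-/- mice.

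Hepatocytes make bile acids from cholesterol. In the classical pathway CYP7A1 sets the rate, HSD3B7 modifies the sterol ring, CYP8B1 directs the product towards cholic acid, and CYP27A1 starts the shortening of the side chain that peroxisomal ACOX2 continues. CYP27A1 and CYP7B1 also form an alternative pathway that begins with side chain oxidation, and SLC27A5 and BAAT link finished bile acids to coenzyme A and then to taurine or glycine. Returning bile acids bind FXR, which raises SHP, a repressor that acts on *Cyp7a1* and *Cyp8b1* through the activators LRH-1 (gene *Nr5a2*) and HNF4α. A second arm runs from the intestinal hormone FGF15 to the hepatic receptor FGFR4 and its partner β-Klotho.

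Promoter sequence was available for 6 of the 10 genes in RefSeq (GRCm38.p6), as windows from 250 bases before to 50 bases after the start of the transcript. They are shown for *Nr0b2* and *Cyp8b1* because these genes, at opposite ends of the feedback arm, were the members of the set whose windows held the LRH-1 motif CAAGGNCA, searched on both strands. The 250 bases before each start are given 5′ to 3′ on the strand of the gene, with this motif in capitals. The *Nr0b2* window lies at chr4:133553126-133553375 (+ strand) and the *Cyp8b1* window at chr9:121916306-121916555 (- strand).
Nr0b2: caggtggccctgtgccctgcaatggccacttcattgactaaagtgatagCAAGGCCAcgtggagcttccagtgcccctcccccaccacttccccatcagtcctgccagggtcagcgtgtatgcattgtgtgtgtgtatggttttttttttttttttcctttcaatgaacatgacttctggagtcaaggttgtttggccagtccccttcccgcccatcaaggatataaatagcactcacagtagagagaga
Cyp8b1: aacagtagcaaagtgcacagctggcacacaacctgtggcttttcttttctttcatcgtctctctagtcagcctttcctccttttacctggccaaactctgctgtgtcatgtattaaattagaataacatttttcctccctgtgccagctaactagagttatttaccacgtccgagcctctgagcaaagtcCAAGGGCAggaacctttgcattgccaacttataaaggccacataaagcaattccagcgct
The motif began at position -201 from the start site in *Nr0b2* and at -60 in *Cyp8b1*. Of 32851 RefSeq promoter windows, 6.71% held it. Both windows also held TATAAA on the strand of the gene, at -28 and -31, as did 8.32% of all windows. No window of the 6 genes held the FXR inverted repeat (AGGTCA and TGACCT with 1 base between them), found in 0.00913% of windows, nor the direct repeat bound by PXR (AGTTCA repeated after a gap of 4 bases), found in 0.0122%.

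A gene was called when its adjusted p was at most 0.05 and its change exceeded 1.5-fold. Adjusted p-values are those of limma with Benjamini-Hochberg adjustment over all 32087 kept probes. Levels are quantile-normalized log2 median signals, changes are differences on that log2 scale, and errors after ± are SD. All 10 main probes were well above background on all 23 arrays and none was saturated. In bulk liver, fewer cells of a type and less RNA per cell cannot be told apart.

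*Nr0b2* (SHP) was lower after PCN in WT mice, and this was the single call among the 10 genes in that genotype. Over all genes, 3.79% were called higher and 2.39% lower, against 0 and 1 of the 10 here. The fitted changes of the 10 genes ran from -1.03 to 1.06 with a median of -0.27, and 4 were above 0, while the median of all genes was -0.02. The 5 WT PCN and 6 WT CONT mice overlapped for all 10 genes, while 12.3% of all genes had no overlap between these groups.

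*Nr0b2*, the transcriptional repressor at the end of the FXR arm, has a single probe, at chr4:133109694-133109753 (mm9). In WT CONT its log2 signal was between 9.13 and 10.34 with a median of 9.68. The WT PCN mice had 7.48, 8.39, 8.69, 9.16 and 9.33. In *Pxr*-/- CONT the values ran from 8.99 to 10.44 with a median of 9.74, and in *Pxr*-/- PCN from 8.54 to 10.06 with a median of 8.96. Thus 3 of the 5 WT PCN mice lay below every WT CONT mouse, and 3 of the 6 *Pxr*-/- PCN mice below every *Pxr*-/- CONT mouse, while the remaining treated mice lay among the controls. The WT change was -1.03 (SE 0.33, 95% interval -1.72 to -0.33, 2.04-fold, adjusted p = 0.0296). In *Pxr*-/- mice it was -0.57 (interval -1.22 to 0.09, adjusted p = 0.316), and the effects did not differ beyond their error (difference -0.46, interval -1.42 to 0.49, adjusted p = 0.709). Within the first wash batch the WT change was -1.30 (adjusted p = 0.0894) and within the second -0.70 (adjusted p = 0.294), and neither was called. The difference between the effects had the opposite sign within the second batch (0.42, adjusted p = 0.747). In the values that follow, the change stands first and its adjusted p second. Leaving out WT PCN replicate 1 ended the call (-0.76, adjusted p = 0.0984), as did leaving out WT PCN replicate 2 (-0.94, 0.0785), WT CONT replicate 5 (-0.86, 0.0799) or WT CONT replicate 3 (-0.98, 0.0537). The call was likewise absent with no filter (-1.02, 0.0501), with no normalization between arrays (-0.89, 0.0508) and with the deposited values (-0.89, 0.0503). The deposited values closely follow the signals before normalization between arrays, so these last settings nearly repeat each other.

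**Figure D1:**
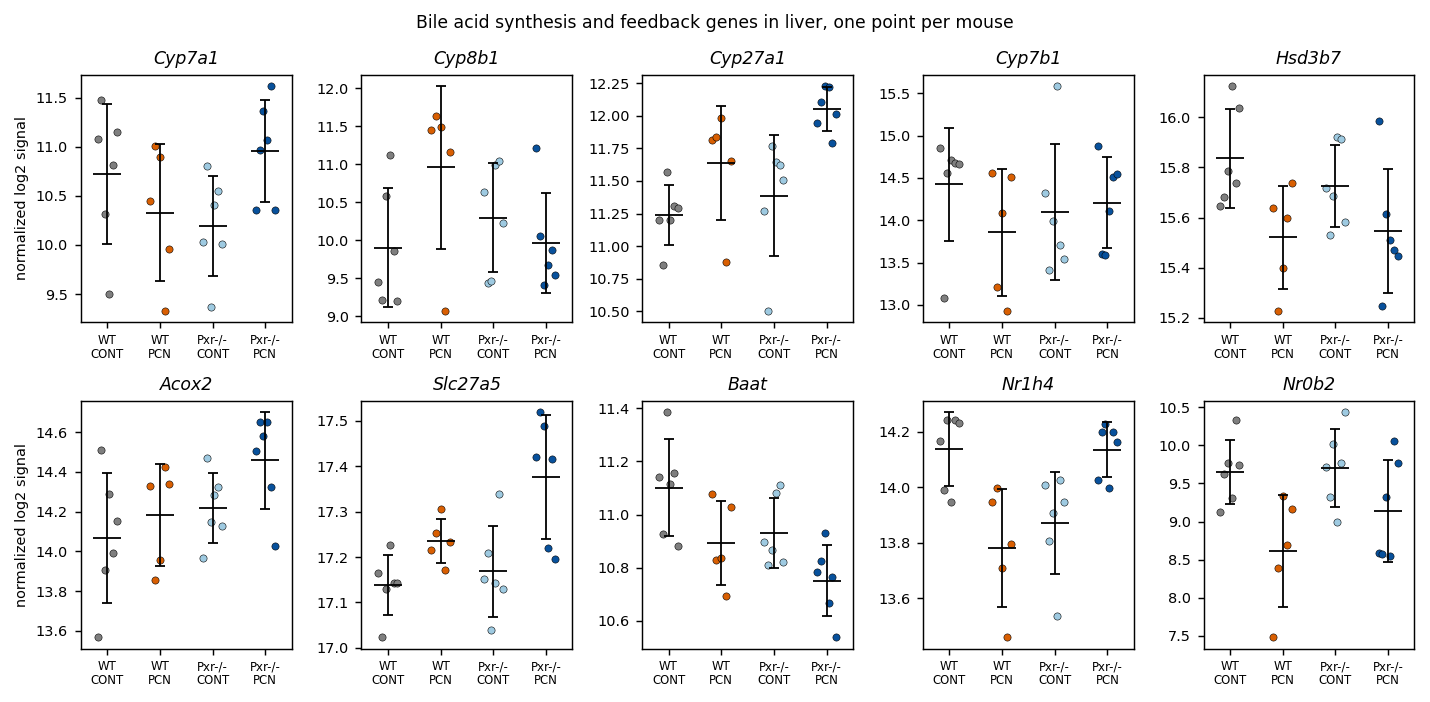
Normalized log2 signal of each of the 10 genes (y axis, own scale per gene) in the 4 groups (x axis), with 1 point per mouse, the mean as a horizontal line and the SD as a bar. *Nr0b2* had a mean of 9.65 in WT CONT and 8.61 in WT PCN, and the 6 *Cyp27a1* values of *Pxr*-/- PCN all lay above those of *Pxr*-/- CONT.

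*Nr1h4* encodes FXR, the bile acid receptor that induces *Nr0b2*. Its main probe matches a RefSeq transcript at chr10:88917222-88917281 (mm9). In WT CONT the log2 signal was 13.95 to 14.24 with a median of 14.20. The WT PCN mice had 13.46, 13.71, 13.80, 13.95 and 14.00, and 4 of the 5 lay below every WT CONT mouse. *Pxr*-/- CONT mice ranged from 13.54 to 14.03 (median 13.93) and *Pxr*-/- PCN mice from 14.00 to 14.23 (median 14.18), of which 4 of the 6 lay above every *Pxr*-/- CONT mouse. The fitted changes after PCN had opposite signs in the genotypes, at -0.35 in WT mice (SE 0.10, interval -0.56 to -0.15, adjusted p = 0.0129) and 0.26 in *Pxr*-/- mice (interval 0.07 to 0.46, adjusted p = 0.0988). Neither change reached 1.5-fold, and the WT change was 1.28-fold.

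The difference between these effects was called, at -0.62 (SE 0.14, interval -0.90 to -0.33, 1.53-fold, adjusted p = 0.0213). *Nr1h4* was the only one of the 10 genes called in this comparison, in which 0.807% of all genes had a higher and 0.242% a lower effect in WT mice. The control groups differed by -0.26, *Pxr*-/- CONT against WT CONT (interval -0.46 to -0.07, adjusted p = 0.28), and the WT CONT and *Pxr*-/- PCN means were 14.14 and 14.14. A second *Nr1h4* probe, which matches the transcript AK050566, gave a difference of -0.29 (interval -0.65 to 0.08, adjusted p = 0.488). The difference was -0.85 (adjusted p = 0.109) and -0.36 (adjusted p = 0.374) within the wash batches, and it fell below 1.5-fold without WT PCN replicate 4 (-0.54, adjusted p = 0.0383) or *Pxr*-/- CONT replicate 4 (-0.55, adjusted p = 0.0290). Scaling to the 75th percentile gave -0.50 (adjusted p = 0.0889) for the median signal and -0.46 (adjusted p = 0.142) for the processed signal, while no normalization (-0.42, adjusted p = 0.383), the deposited values (-0.42, 0.244), the slide as a fixed block (-0.59, 0.0687) and the mean of both probes (-0.45, 0.0482) also ended the call.

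*Cyp7a1*, the rate-limiting enzyme of the classical pathway, has its main probe at chr4:6193456-6193515 (mm9). WT CONT mice ranged from 9.50 to 11.47 with a median of 10.95. The WT PCN mice had 9.33, 9.96, 10.45, 10.90 and 11.01, so that all but the lowest lay within the range of the controls. *Pxr*-/- CONT mice ranged from 9.37 to 10.81 (median 10.22) and *Pxr*-/- PCN mice from 10.35 to 11.62 (median 11.02). Of the 6 *Pxr*-/- PCN mice, 4 lay above every *Pxr*-/- CONT mouse. No comparison of *Cyp7a1* was called. The change was -0.39 in WT mice (interval -1.12 to 0.33, adjusted p = 0.455) and 0.76 in *Pxr*-/- mice (interval 0.07 to 1.45, adjusted p = 0.18), and the difference of -1.15 had an interval of -2.15 to -0.15 that lay below 0 before adjustment (adjusted p = 0.265). The WT value was -0.82 and 0.24 within the wash batches, -0.23 with the deposited values, -0.14 without WT PCN replicate 4, -0.24 without WT CONT replicate 2 and -0.64 without WT CONT replicate 4, and none of these was called. Another *Cyp7a1* probe, well above background on 20 of the 23 arrays, gave changes of -0.39 and 0.25 and a difference of -0.64 (adjusted p = 0.249).

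*Cyp8b1*, which is needed for cholic acid, had the highest fitted change of the 10 genes in WT mice and was not called. Its probe lies at chr9:121824595-121824654 (mm9). WT CONT mice ranged from 9.20 to 11.12 (median 9.66). The WT PCN mice had 9.07, 11.16, 11.45, 11.49 and 11.64, and thus 4 of the 5 lay above every WT CONT mouse and the other below all of them. *Pxr*-/- CONT mice ranged from 9.44 to 11.05 (median 10.42) and *Pxr*-/- PCN mice from 9.41 to 11.21 (median 9.78), with broad overlap. The change was 1.06 in WT mice (SE 0.46, interval 0.11 to 2.02, adjusted p = 0.101) and -0.34 in *Pxr*-/- mice (interval -1.24 to 0.57, adjusted p = 0.717), with a difference of 1.40 (interval 0.08 to 2.71, adjusted p = 0.312). Whether the WT change was called depended on single mice and on the slide term. Without the low mouse, WT PCN replicate 4, the change was 1.53 (adjusted p = 0.00965), a call. Leaving out WT CONT replicate 4, the highest WT control, gave 1.30 (adjusted p = 0.0442). Within the wash batches the WT change was 0.59 (adjusted p = 0.600) and 1.73 (adjusted p = 0.0959), and with the slide as a fixed block it was 0.97 (adjusted p = 0.0244).

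WT PCN replicate 4 also held the lowest WT PCN value of *Baat*, *Cyp27a1*, *Cyp7a1*, *Cyp7b1*, *Nr1h4* and *Slc27a5*, that is 7 of the 10 genes with *Cyp8b1*. Without this mouse, which was picked out by its values in these same genes, 3 of the 10 genes were called in WT mice. The share of all genes called without it is not given here, so this count says nothing about the set. *Cyp8b1* and *Cyp27a1* (0.59, adjusted p = 0.0223) were higher and *Nr0b2* (-1.06, adjusted p = 0.0428) lower.

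*Cyp27a1* encodes the mitochondrial hydroxylase of the sterol side chain, which serves both pathways. Its probe lies at chr1:74782203-74782262 (mm9). *Pxr*-/- CONT mice ranged from 10.50 to 11.77 with a median of 11.56, and *Pxr*-/- PCN mice from 11.79 to 12.23 with a median of 12.06. These groups did not overlap for *Cyp27a1*, 1 of the 10 genes, against 3.14% of all genes. In WT CONT the range was 10.85 to 11.57 (median 11.25), and the WT PCN mice had 10.88, 11.65, 11.81, 11.84 and 11.99, with 4 of the 5 above every WT CONT mouse. *Cyp27a1* rose by 0.67 in *Pxr*-/- mice (SE 0.18, interval 0.29 to 1.04, 1.59-fold, adjusted p = 0.0302), the single call of the 10 genes in that genotype, where 1.42% of all genes were called higher and 0.86% lower. The WT change was 0.42 (interval 0.02 to 0.81, adjusted p = 0.12) and the difference between the effects -0.25 (interval -0.79 to 0.29, adjusted p = 0.727). In the first wash batch the WT change was 0.09 (adjusted p = 0.874), and in the second 0.80 (adjusted p = 0.017), a call. With the deposited values it was 0.58 (adjusted p = 0.0511). The *Pxr*-/- change was 0.85 (adjusted p = 0.236) and 0.48 (adjusted p = 0.124) within the wash batches. Its call was lost without *Pxr*-/- CONT replicate 2 (0.50, adjusted p = 0.0554), replicate 1 (0.66, 0.0579) or replicate 6 (0.67, 0.0506), without *Pxr*-/- PCN replicate 3 (0.61, 0.0746) or replicate 4 (0.65, 0.0687), with the slide as a fixed block (0.56, 0.0707), no filter (0.67, 0.0505), the deposited values (0.70, 0.0516) or no normalization (0.71, 0.0707).

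**Figure D2:**
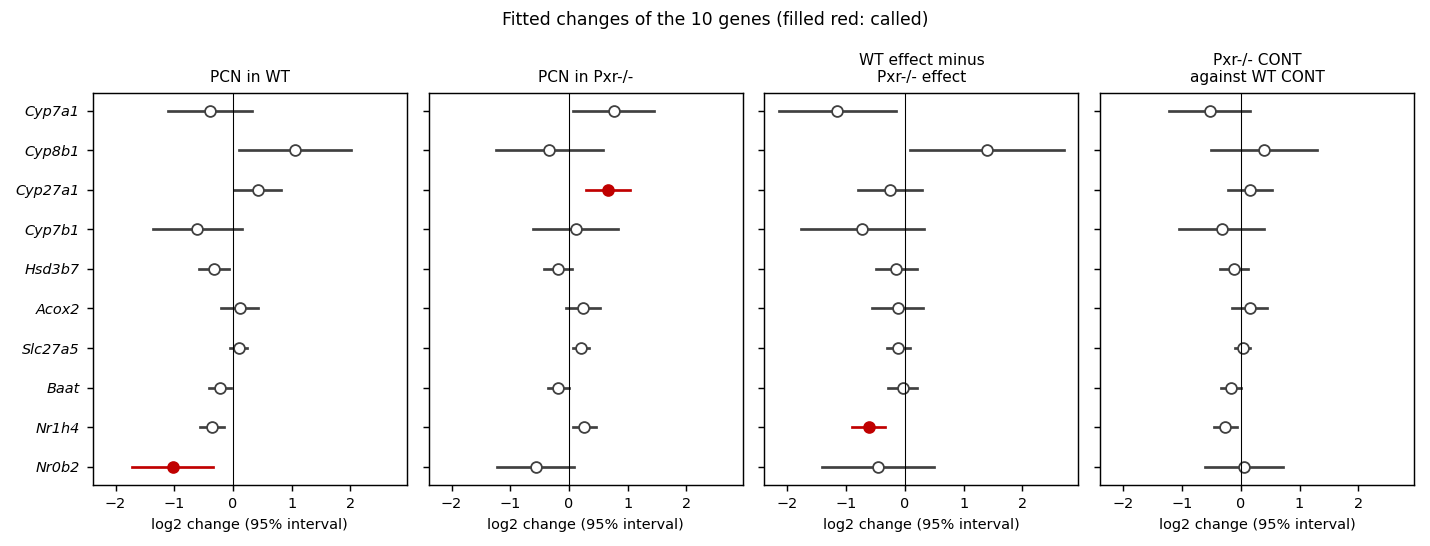
Fitted log2 change (points) with its 95% interval (lines) for the 10 genes in the 4 comparisons, one panel each, with called genes filled in red. *Nr0b2* was called in WT mice, *Cyp27a1* in *Pxr*-/- mice and *Nr1h4* for the difference, and none of the 10 between the control groups.

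The remaining enzymes had no called change. *Cyp7b1*, the oxysterol 7α-hydroxylase of the alternative pathway, varied widely within groups. WT CONT mice ranged from 13.08 to 14.85 and *Pxr*-/- CONT mice from 13.41 to 15.59. The WT PCN mice had 12.93, 13.21, 14.09, 14.51 and 14.56, and *Pxr*-/- PCN mice ranged from 13.59 to 14.88. Treated and control mice overlapped in both genotypes, and the changes were -0.61 (interval -1.37 to 0.15, adjusted p = 0.248) and 0.12 (interval -0.61 to 0.84, adjusted p = 0.894). A second *Cyp7b1* probe gave -0.50 and 0.26.

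*Hsd3b7*, which oxidizes and isomerizes the sterol ring, had the same sign in both genotypes. The WT PCN mice had 15.23, 15.40, 15.60, 15.64 and 15.74 against 15.65 to 16.13 in WT CONT, and 4 of the 5 lay below every WT CONT mouse. Its changes were -0.32 in WT mice (interval -0.57 to -0.07, adjusted p = 0.0552) and -0.18 in *Pxr*-/- mice (interval -0.42 to 0.06, adjusted p = 0.385). The WT change of *Hsd3b7* was -0.07 with the deposited values, with no normalization and within the first wash batch, and it was -0.63 within the second (adjusted p = 0.0469), a call. In *Baat*, which conjugates bile acids to amino acids, the ranges were 10.88 to 11.39 in WT CONT, 10.69 to 11.08 in WT PCN, 10.81 to 11.11 in *Pxr*-/- CONT and 10.54 to 10.93 in *Pxr*-/- PCN. Its fitted changes were -0.22 (interval -0.40 to -0.04, adjusted p = 0.0722) and -0.18 (interval -0.35 to -0.01, adjusted p = 0.209). *Slc27a5*, which activates bile acids with coenzyme A, had fitted changes of 0.09 (interval -0.05 to 0.24, adjusted p = 0.34) and 0.21 (interval 0.07 to 0.34, adjusted p = 0.0552). The interval of *Slc27a5* in *Pxr*-/- mice lay below the fold threshold of 0.585 on the log2 scale. *Acox2*, the peroxisomal oxidase of the side chain, had values of 0.11 (interval -0.20 to 0.43, adjusted p = 0.637) and 0.24 (interval -0.06 to 0.54, adjusted p = 0.354), and its other probe gave 0.42 (adjusted p = 0.0672) and 0.41 (adjusted p = 0.117).

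Vehicle-treated mice of the genotypes were compared to ask what loss of PXR does without ligand. None of the 10 genes was called, where 0.228% of all genes were higher and 0.0807% lower in *Pxr*-/- CONT. The changes ran from -0.53 for *Cyp7a1* (interval -1.22 to 0.16, adjusted p = 0.57) to 0.39 for *Cyp8b1* (interval -0.51 to 1.30, adjusted p = 0.778), with a median of -0.04, and 5 of the 10 were above 0. The control groups overlapped for all 10 genes, and 0.826% of all genes had no overlap. *Nr0b2* differed by 0.06 (interval -0.60 to 0.71, adjusted p = 0.967), an interval wide enough to include a change past 1.5-fold in either direction.

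The repressor and the enzymes it acts on were next compared mouse by mouse, on the deviations of each mouse after group and wash batch had been taken out, in 3 relations over 23 mice. *Nr0b2* and *Cyp7a1* had a Pearson r of -0.017 (permutation p = 0.944) and a Spearman rho of -0.032 (p = 0.895). For *Nr0b2* and *Cyp8b1* r was -0.224 (permutation p = 0.363, adjusted 0.944) and rho -0.263 (p = 0.245, adjusted 0.735). For *Cyp7a1* and *Cyp8b1* r was -0.039 (permutation p = 0.874, adjusted 0.944) and rho -0.124 (p = 0.598, adjusted 0.895). No relation passed its two-sided permutation test of 100000 resamples within groups. Without the 2 mice farthest from the median of the first gene, r was -0.118, -0.193 and -0.149. Within the first wash batch r was -0.011, -0.321 and -0.17 and within the second -0.121, -0.387 and -0.351, in the same order. With the deposited values r was 0.067 for *Nr0b2* and *Cyp7a1*, -0.217 for *Nr0b2* and *Cyp8b1* and 0.056 for the enzymes. Single mice had large deviations in both enzymes. WT PCN replicate 4 was low in both *Cyp7a1* (-0.9959) and *Cyp8b1* (-1.8763), and the second wash batch does not hold this mouse. WT CONT replicate 4 had deviations of opposite sign, -1.2257 and 1.1922. These were the 2 mice farthest in *Cyp7a1*, without which r was -0.149. Leaving out either mouse alone was not tested for this pair, so the part of each in r is not known.

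**Figure D3:**
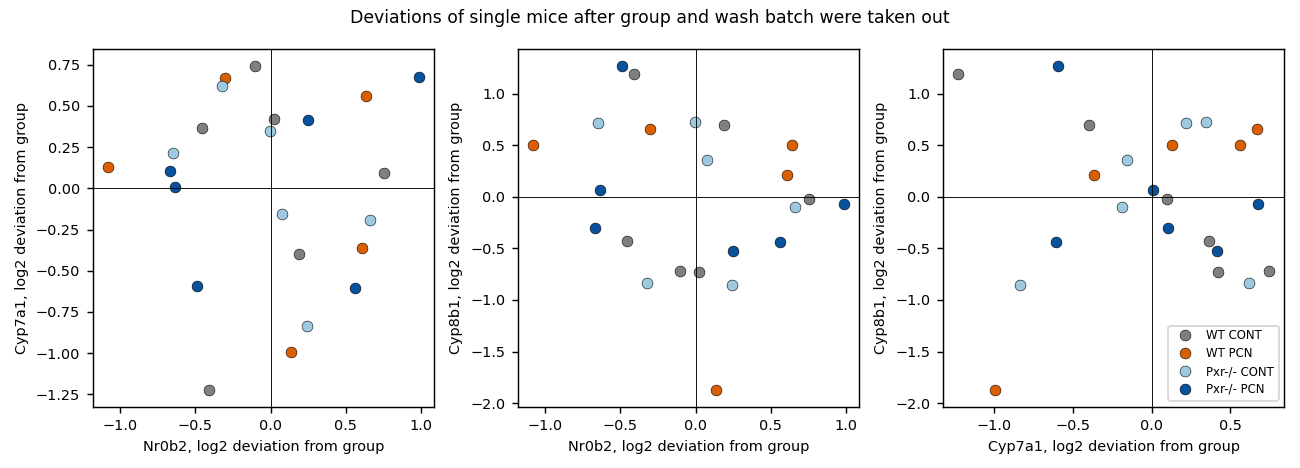
Log2 deviation of each mouse from its group, after wash batch was taken out, for *Nr0b2* against *Cyp7a1*, *Nr0b2* against *Cyp8b1* and *Cyp7a1* against *Cyp8b1*, with 1 point per mouse coloured by group. Over all 23 mice the points form no line, with r of -0.017, -0.224 and -0.039.

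As a description over the same deviations, the closest pair among the 10 genes was *Baat* with *Cyp27a1* (r = 0.737), followed by *Baat* with *Cyp8b1* (0.658) and *Cyp27a1* with *Cyp7b1* (0.577), and the most opposed was *Cyp7a1* with *Hsd3b7* (-0.444). Among 15098 genes named in RefSeq, those most like *Cyp7a1* over the 23 arrays were *Rrp12* (r = 0.79), *Idh3a* (0.784) and *Gtf2e1* (0.781), and those most like *Cyp8b1* were *Sucnr1* (0.841), *Apip* (0.84) and *Susd4* (0.835). *Cyp7b1* was most like *Ppp1r14a* (0.916), *Mup11* (0.899) and *Hsd3b5* (0.897), and *Nr0b2* most like *Lnx2* (0.835), *Rpp21* (0.833) and *Kifc2* (0.82). All such values share the arrays and their normalization.

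The other genes of the pathway were taken from a list of 43, of which 41 passed the filter and the intestinal genes *Fgf15* and *Slc51a* did not. In WT mice 5 were called higher and 3 lower (3.79% and 2.39% of all genes), and in *Pxr*-/- mice 5 and 2 (1.42% and 0.86% of all genes). Their medians were -0.15 and -0.05. Among 14 further enzymes, 3 rose in WT mice. *Akr1d1*, the 5β-reductase of the sterol ring, rose by 1.59 (adjusted p = 1.6e-06), *Ch25h*, a cholesterol hydroxylase, by 1.62 (adjusted p = 2.16e-05) and *Por*, the electron donor of microsomal cytochromes P450, by 1.04 (adjusted p = 9.01e-05). *Akr1d1* (0.71, adjusted p = 0.0126) and *Por* (0.62, adjusted p = 0.0168) also rose in *Pxr*-/- mice, and the differences of 0.89 and 0.42 were not called (adjusted p = 0.0661 and 0.396). *Ch25h* was dim, well above background on 4 of 6 WT CONT, 5 of 5 WT PCN, 2 of 6 *Pxr*-/- CONT and 6 of 6 *Pxr*-/- PCN arrays, and had a *Pxr*-/- change of 0.50 (adjusted p = 0.149) that was 1.44 with the processed signal (adjusted p = 0.0328). In *Pxr*-/- mice the *Akr1d1* call was lost with no normalization (0.74, adjusted p = 0.063) and with the mean of all its probes, which lay below 1.5-fold (0.55, adjusted p = 0.00393). The *Por* call was lost there with only the groups compared (0.62, adjusted p = 0.0518) and with the slide as a fixed block (0.56, adjusted p = 0.0403). Without *Pxr*-/- PCN replicate 3 or *Pxr*-/- CONT replicate 1, 4 or 5, *Por* fell below 1.5-fold (0.52 to 0.58). The mean of all *Akr1d1* probes gave a called difference of 0.77 (adjusted p = 0.00815).

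Of 14 regulators that passed the filter, *Ppargc1a*, a coactivator, fell in both genotypes, by 1.20 (adjusted p = 9.88e-05) and 0.96 on the log2 scale (adjusted p = 0.0031). *Nr1i3* (CAR, a xenobiotic receptor) and *Prox1* (a corepressor of LRH-1) rose in *Pxr*-/- mice, by 0.97 (adjusted p = 0.00531) and 0.70 (adjusted p = 0.0131). Their WT changes were -0.30 and -0.27, and both differences between the effects were called, at -1.27 (adjusted p = 0.0213) and -0.96 (adjusted p = 0.0404). *Prox1* was also lower in *Pxr*-/- CONT than in WT CONT, by -0.75 (adjusted p = 0.037). That call and the *Prox1* difference were lost in 10 and 13 of the 23 fits that each left out 1 array. With the deposited values the differences were not called for *Nr1i3* (-1.16, adjusted p = 0.0504) or *Prox1* (-0.85, adjusted p = 0.105), nor with the slide as a fixed block (-1.17, adjusted p = 0.0702, and -0.95, adjusted p = 0.15). The receptor genes of the intestinal arm were not called. *Fgfr4* had changes below 1.5-fold, of -0.46 in WT mice (adjusted p = 0.000879) and -0.53 in *Pxr*-/- mice (adjusted p = 0.0013), and *Klb* of -0.52 (adjusted p = 0.00614) and -0.36 (adjusted p = 0.0879). *Nr5a2*, which encodes LRH-1, had fitted changes of -0.20 (adjusted p = 0.0989) and -0.11 (adjusted p = 0.504).

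Among 13 transporters, *Slco1a4*, a sinusoidal uptake carrier, rose by 2.78 in WT mice (adjusted p = 4.09e-06) and 1.31 in *Pxr*-/- mice (adjusted p = 0.014), and *Abcc3*, a basolateral export pump, by 1.38 in WT mice (adjusted p = 2.88e-07). The *Abcc3* effect was larger in WT mice, by 0.99 (adjusted p = 0.00366), against a *Pxr*-/- change of 0.39 (adjusted p = 0.0656). Within the wash batches this difference was 1.02 (adjusted p = 0.122) and 0.95 (adjusted p = 0.137). *Slco1a4* was 1.83 lower in *Pxr*-/- CONT than in WT CONT (log2 change -1.83, adjusted p = 0.0046), a call lost with only the groups compared (-1.83, adjusted p = 0.0643) and within either wash batch (-1.57, adjusted p = 0.29, and -2.08, adjusted p = 0.0999). Its *Pxr*-/- change after PCN was 0.97 (adjusted p = 0.263) and 1.64 (adjusted p = 0.139) within the batches. *Abcb4*, the phospholipid exporter of the canalicular membrane, fell by 0.74 (adjusted p = 1.76e-05) and 0.61 on the log2 scale (adjusted p = 0.000832), and the uptake carrier *Slco1a1* fell by 0.90 in WT mice (adjusted p = 0.000697). With the deposited values *Abcb4* was below 1.5-fold in both genotypes (-0.50, adjusted p = 0.00219, and -0.57, adjusted p = 0.00388), as it was in *Pxr*-/- mice without *Pxr*-/- PCN replicate 2 (-0.57), *Pxr*-/- PCN replicate 3 (-0.58) or *Pxr*-/- CONT replicate 4 (-0.58). The canalicular bile acid pump *Abcb11* had fitted changes of 0.29 (adjusted p = 0.118) and 0.04 (adjusted p = 0.892).

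**Figure D4:**
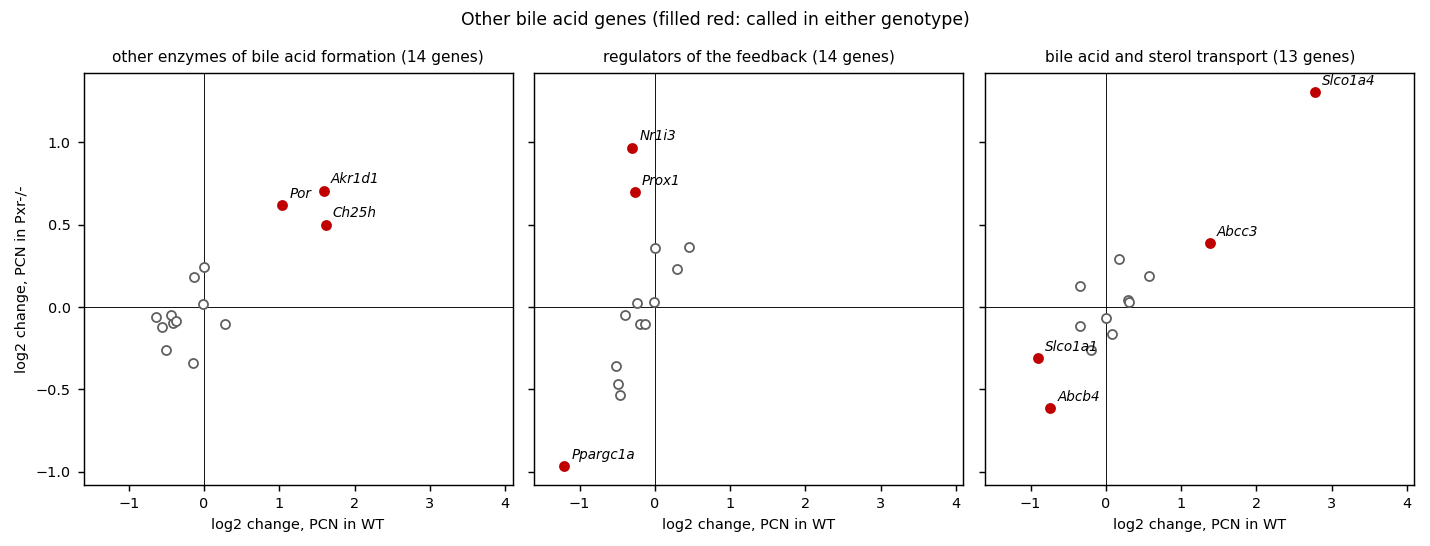
Log2 change after PCN in WT mice (x axis) and in *Pxr*-/- mice (y axis) for the other bile acid genes, in 3 panels by role, with genes called in either genotype filled in red and named. *Nr1i3* and *Prox1* lay above 0 in *Pxr*-/- mice only, and *Slco1a4*, *Akr1d1* and *Por* lay above 0 in both.

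Clock genes also set the level of *Cyp7a1* and *Nr0b2* over the day. Of 16 that passed the filter, 6 were called lower in WT mice (*Cry2*, *Nr1d1*, *Dbp*, *Tef*, *Hlf* and *Bhlhe41*) and none higher, with a median of -0.58 and *Dbp* at -1.49 (adjusted p = 0.000159), where 2.39% of all genes were called lower. The count was 3 without WT PCN replicate 4 or WT CONT replicate 3, 2 with the deposited values or no normalization, and 10 and 1 within the wash batches, with *Dbp* at -0.78 in the second (adjusted p = 0.11). None of the 5 WT PCN mice had *Bhlhe41* well above background. The filter kept *Bhlhe41* through the vehicle groups alone, with 4 of 6 WT and 6 of 6 *Pxr*-/- control mice passing, against 2 of 6 *Pxr*-/- PCN mice. A gene kept in this way could hardly be called higher after PCN, so its place among the 6 says little about direction. In *Pxr*-/- mice 1 was called higher (*Nfil3*, 1.06, not called with the slide as a fixed block, adjusted p = 0.0707) and the median was -0.27, and no difference between the effects was called. All 6 hepatocyte markers passed the filter, with a summed level of 19.84 to 20.19 in WT CONT, 19.90 to 20.01 in WT PCN, 19.99 to 20.08 in *Pxr*-/- CONT and 19.98 to 20.10 in *Pxr*-/- PCN (log2 of the summed signals). *Apoa1* was called higher in *Pxr*-/- PCN (0.62, adjusted p = 0.000955), and was below 1.5-fold without *Pxr*-/- PCN replicate 2 (0.56). Cholangiocyte markers, of which 5 of 6 passed the filter and *Cftr* did not, summed to 10.49 to 12.20 in WT CONT, 11.68 to 12.96 in WT PCN, 10.80 to 11.70 in *Pxr*-/- CONT and 11.13 to 12.51 in *Pxr*-/- PCN, and *Sox9* was called in WT mice (0.76, adjusted p = 0.0109). That call was lost with the slide as a fixed block (0.71, adjusted p = 0.0546), with the mean of all *Sox9* probes (0.53, below 1.5-fold) and within the second wash batch (0.26, adjusted p = 0.473). Of 6 stellate cell markers *Col1a1* was called in both genotypes (3.17, adjusted p = 2.33e-05, and 1.96, adjusted p = 0.00628), while the summed levels overlapped, at 14.31 to 15.10 in WT CONT and 14.54 to 14.90 in WT PCN. No Kupffer cell or endothelial marker was called. Of 6 ileal enterocyte markers 3 passed the filter, *Fabp6*, *Vil1* and *Alpi* did not, and *Fabp2* was lower in both genotypes (-1.55, adjusted p = 1.09e-06, and -0.81, adjusted p = 0.00394). *Fabp2*, *Mttp* and *Slc10a2* were well above background on all 23 arrays of liver RNA. Their levels here cannot be read as a measure of intestinal cells. The summed levels add signals before log2, so the brightest markers dominate them. In WT CONT these had means of 18.56 (*Alb*) and 18.55 (*Serpina1a*) for hepatocytes, 11.10 (*Spp1*) for cholangiocytes and 14.37 (*Dcn*) for stellate cells. The sums therefore say little about the other markers or about cell numbers. The part of clock and cell type genes in the changes of the 10 genes was not tested.

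The calls of *Nr0b2*, *Cyp27a1* and *Nr1h4* each depended on the scaling of the arrays, whereas their directions did not. *Nr0b2* stayed between -1.30 and -0.70, *Cyp27a1* between 0.48 and 0.85 and the *Nr1h4* difference between -0.85 and -0.36 over the alternatives other than leaving out an array.

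**Figure D5:**
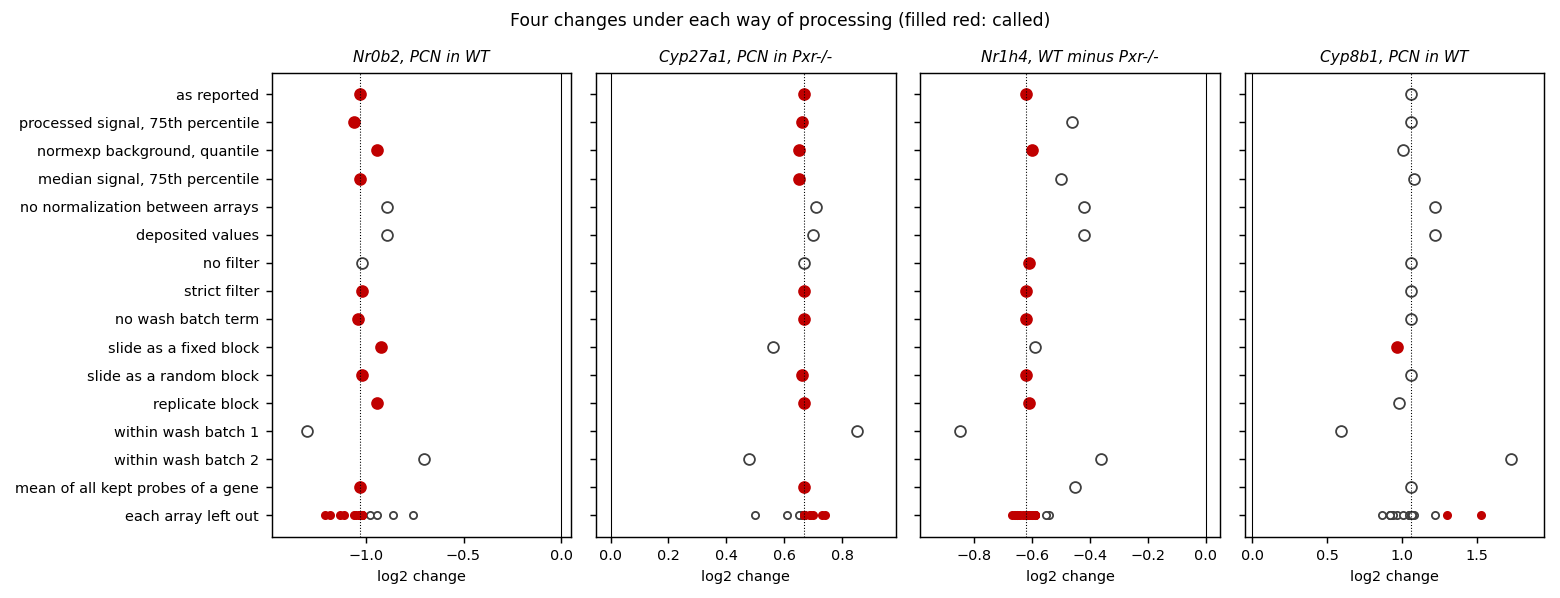
Log2 change of *Nr0b2* in WT mice, *Cyp27a1* in *Pxr*-/- mice, the *Nr1h4* difference and *Cyp8b1* in WT mice (x axes) under each way of processing (y axis), with called values filled in red and the reported value as a dotted line. All values of a gene lay on the same side of 0, and *Cyp8b1* was called with the slide as a fixed block and without either of 2 arrays.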

How the data were processed

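Gene expression was measured in liver RNA of 23 mice on Agilent 1-colour arrays. The deposited scanner files hold Feature Extraction (10.10.1.1 per the labels) intensity values per spot, not normalized between arrays. The authors also deposited log2 values for 32574 probes; their methods name the median signal, log2, a wash batch correction and CrossNorm normalization. These log2 values followed the log2 median signal on every array with slopes of 0.994 to 1.003 and had column medians of 7.54 to 8.01. Results with them therefore nearly repeat those with no normalization between arrays, and do not show what CrossNorm would give.

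Here outlier spots were set to missing (2225), spots of a probe averaged, probes filtered to those well above background in over 50% of the arrays of any group, and log2 median signals quantile normalized. Between 29510 and 33321 probes per array were well above background. Quantile normalization stands in for CrossNorm. limma 3.58.1 (R 4.3.3) fitted group terms and an additive wash batch term (18 residual degrees of freedom). Each wash batch held 3 arrays of every group, except 2 WT PCN arrays in the second. The 8 slides held 2 to 4 arrays each, and all arrays were scanned on 1 day. P-values were adjusted over 32087 probes, with calls made at adjusted p ≤ 0.05 and a fold above 1.5. On simulated data for PCN in WT mice (32087 probes, 100 changed per size) 94% of changes of 1 on the log2 scale and 100% of changes of 2 were recovered, with 1 false call. These shares hold for the simulated probes as a set. Recovery at the spread of the bile acid genes was not tested, so the shares do not give it. *Cyp8b1*, for example, had a WT change of 1.06 with an SE of 0.46 and was not called. Arrays give no count of molecules, so their number limits the precision.

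All 10 genes are named in every comparison, and of the 43 related genes every called one, besides *Fgfr4*, *Klb*, *Nr5a2* and *Abcb11*, which were chosen after their values were seen. The genes most like a member were the 3 of highest r among kept genes named in RefSeq. The members and all lists were chosen with earlier results of these data known. Alternatives were another signal, background correction, scaling, filter, batch term, slide or replicate block, probe rule and each array left out. Promoter sequences came from RefSeq (GRCm38.p6) and were available for 6 of the 10 genes. By symbol, all 10 genes matched gene names in RefSeq. Probe positions were read from the scanner files (mm9). Python 3.11.15, numpy 2.4.6, scipy 1.17.1, pandas 2.3.3, matplotlib 3.10.9 and the R package data.table (version 1.17.8) were used.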

Additional observations from a re-analysis of the deposited data

Results flagged for a closer look

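Of 40 groups of values (10 genes in 4 groups), 3 held a mouse far from the others, where chance flags about 1 group in 20. *Cyp8b1* was 9.07 in WT PCN replicate 4, with the next value at 11.16. *Cyp8b1* was 11.21 in *Pxr*-/- PCN replicate 1, the highest of its group, with the next at 10.05. *Cyp7b1* was 13.08 in WT CONT replicate 2, with the next at 14.55.

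The difference between the PCN effects of the genotypes was called by the interaction test of limma for 5 of the genes described. Over all genes, 0.807% had a called higher and 0.242% a called lower effect in WT mice. With the deposited values the differences of *Nr1h4*, *Nr1i3* and *Prox1* were not called, and within either wash batch that of *Abcc3* was not. The effect in WT mice minus that in *Pxr*-/- mice was -0.62 for *Nr1h4* (adjusted p = 0.0213), -1.27 for *Nr1i3* (adjusted p = 0.0213), -0.96 for *Prox1* (adjusted p = 0.0404), 0.99 for *Abcc3* (adjusted p = 0.00366) and 3.24 for the PXR target *Cyp3a11* (adjusted p = 1.23e-06).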

How the results depend on the processing

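The 3 calls among the 10 genes kept their direction in every alternative run and lost the threshold in some. The number of the 10 genes called was 1 in WT mice, 1 in *Pxr*-/- mice and 1 for the difference. With no normalization between arrays and with the deposited values all 3 became 0; without the filter both PCN comparisons gave 0; scaling to the 75th percentile (median or processed signal) and the mean of a gene's probes gave 0 for the difference. The slide as a fixed block gave 2, 0 and 0, the first wash batch alone 0, 0 and 0, the second 2, 0 and 0, and no fold threshold 2 in WT mice. Of all 21056 genes, the WT comparison called 1152 with the slide block, 689 in the second batch and 5064 with no fold threshold. Leaving out each array in turn gave 0 to 3, 0 to 1 and 0 to 1. No setting called any of the 10 between the control groups, where limma gave *Nr1h4* an unadjusted p of 0.0105. With the deposited values the median of all probes moved to 0.11 in WT mice, and the share of called genes that were higher was 84.3% in place of 61.3% there, 73.6% in place of 62.4% in *Pxr*-/- mice, 87.7% in place of 76.9% for the difference and 45% in place of 73.8% between controls.

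Among the other bile acid genes, the count between controls fell from 2 to 1 without the filter, with the slide as a fixed block, with the replicate block, with only the groups compared and with the mean of probes, and to 0 within either batch (1 to 2 with an array left out). The difference count of 3 was 1 with the slide as a fixed block, 1 in the first batch and 0 in the second, and the *Pxr*-/- count of 7 was 0 and 2 within the batches. No fold threshold gave 22 in WT and 12 in *Pxr*-/- mice, where 5064 and 1445 of all 21056 genes were called. Whether replicate numbers pair mice was not settled. Of 33 same-number pairs across groups, 13 had a correlation of deviations above 0.1 (range -0.17 to 0.611). Of 165 other pairs, 40 did (range -0.304 to 0.357), and the medians were 0.003 and -0.019. The replicate block left the counts of the 10 genes at 1, 1, 1 and 0. With it the limma adjusted p was 0.00501 for *Nr0b2* in WT mice, 0.0161 for *Cyp27a1* in *Pxr*-/- mice and 0.00608 for the *Nr1h4* difference. It was 0.146 for *Cyp8b1* in WT mice.

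Several values that were not called changed sign, and not all of them were small. For the difference these were *Hsd3b7* (0.0088 processed signal, 0.0807 no normalization, 0.086 deposited), *Baat* (0.0059, 0.0853 and 0.0851 likewise, 0.0046 for the 75th percentile of the median signal, 0.11 in the second batch, -0.0945 to 0.0221 with an array left out) and *Acox2* (0.0332, 0.0845 and 0.0821, 0.0038, and 0.31 in the first batch). Between controls *Nr0b2* was -0.085 without normalization and -0.0842 deposited (-0.0837 to 0.2155 with an array left out), and *Slc27a5* -0.012 and -0.0108 (-0.0084 to 0.0546). In the first batch *Nr0b2* was -0.40 and *Cyp27a1* -0.22 between controls, *Cyp7b1* -0.11 in *Pxr*-/- mice and *Prox1* 0.0643 in WT mice. In the second batch *Cyp7a1* was 0.24, *Acox2* -0.41, *Nr1i3* 0.33 and *Abcb11* -0.0315 in WT mice, the difference was 0.32 for *Cyp27a1*, 0.42 for *Nr0b2* and 0.0053 for *Slc27a5*, and *Acox2* was -0.12 between controls. With an array left out *Cyp7b1* ranged from -0.0776 to 0.3816 and *Abcb11* from -0.0374 to 0.095 in *Pxr*-/- mice. With the deposited values the correlation was 0.067 for *Nr0b2* with *Cyp7a1* and 0.056 for *Cyp7a1* with *Cyp8b1*. The causes were not tested.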
